A study of Mus musculus with 80 samples.

Results

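Movement of a cell over its surroundings needs an actin network that can be built and taken apart, contacts that tie that network to the matrix outside, and enzymes that open the matrix. The genes described here are 38 genes of this machinery, chosen by name from a list: matrix proteins and matrix enzymes, small GTPases with their effectors, focal adhesion proteins, actin crosslinkers, actin turnover factors, membrane linkers and nonmuscle myosins. They were chosen with earlier results of these data known, and they are 38 of the 27128 gene rows in the deposited tables. All 38 were found, with Ezr listed under its older symbol Vil2.

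The study sequenced RNA of male mouse germ cells taken on postnatal day 5.5. In the neonatal testis, germ cells that descend from gonocytes move from the centre of the seminiferous cord to the basement membrane, where they become spermatogonia, and the actin and adhesion machinery is part of that movement. All cells came from B6;CBA-Tg(Pou5f1-EGFP)2Mnn/J males, which carry green fluorescent protein under regulatory sequence of Pou5f1 (Oct4), and all were labelled Oct4-GFP positive germ cells, so the groups compared share this transgene and this sort. The labels describe them as spermatogonial stem and progenitor cells. Sorted CD87 negative cells gave 2 libraries, sorted CD87 positive cells gave 2 libraries, and 71 further cells that were Oct4-GFP positive and KIT negative were sequenced one by one. CD87 is the urokinase receptor, a protein of the cell surface that holds the protease urokinase at the membrane and is known in other cells from work on migration and matrix breakdown. Its gene is Plaur. The labels do not say how many animals were pooled in a library or from which animals the single cells came.

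In the sorted libraries the values are TPM, a transcript abundance scaled for gene length and for the size of the library. CD87 positive library 2 stood apart, with 12063 genes above 0 TPM against 15147 to 16267 in the other libraries. Values that rest on it are given also without it where that turns them. The labelled cell type was checked against its markers. All 11 germ cell markers, among them Ddx4, Dazl and Uchl1, were above 0 in both groups, and they summed to 1949 and 2099 TPM without CD87 and to 1732 and 2086 TPM with it. Single markers were less even, with 2 higher and 2 lower in both positive libraries (20.4% and 14.5% of all genes tested below). Gfra1 was at 21.3 and 20.8 against 53.1 and 52.9 TPM, and Stra8 at 119.6 and 150 against 96.3 and 93.7 TPM. Dppa3 was at 0 in CD87 positive library 2. In the same libraries the markers of macrophages and leukocytes were not even. These 17 genes summed to 16.9 and 12.98 TPM in the negative libraries and to 383 and 295 TPM in the positive ones. Of the 17, 11 were higher in both positive libraries, and 8 were at 0 in both negative ones, among them Lyz2, Tyrobp, C1qa and C1qb. Apoe was the most abundant, at 4.28 and 4.48 against 189 and 128 TPM. Sums of the 9 peritubular myoid markers were also higher, at 25.95 and 19.85 against 50.5 and 90.4 TPM. That sum rests mainly on Smoc2, at 16.87 and 9.49 against 37.14 and 51.93 TPM, which was also detected in 64 of 71 single germ cells. Myl9 (4.04 and 3.39 against 7.53 and 21.82 TPM) and Tagln (0.91 and 1.42 against 1.53 and 3.27 TPM) were higher in both positive libraries too. Of the 9 markers, 0 were lower in both. Cnn1 and Mylk overlapped between groups and reached 7.5 and 5.86 TPM in CD87 positive library 2. The smooth muscle genes Acta2, Myh11, Des and Actg2 were at 1.49 TPM or below in each library. Conversely, the 17 Sertoli markers summed to 167 and 246 against 161 and 72.5 TPM. Many of the motility genes are expressed by such somatic cells too. The part that these cells had in the differences below was not tested.

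The promoters of the 4 genes with the smallest p in the CD87 comparison are shown first, because 3 of them encode proteins that act on different layers of the machinery (the monomeric actin pool, GTPase signalling and matrix breakdown) and the remaining one encodes an inhibitor of matrix breakdown. Each runs from 250 bases before to 50 bases after the start of the gene, 5′ to 3′ on the strand of the gene, from RefSeq on build GRCm38.p6. Capitals mark matches, on either strand, to the letters GGGCGG (an Sp1-type GC box, CCGCCC on the other strand) and GGAATG (a TEAD-type core). The regions are chrX:167209169-167209468 (minus strand) for Tmsb4x, chr3:104788784-104789083 (plus strand) for Rhoc, chrX:20869916-20870215 (plus strand) for Timp1 and chr14:54431348-54431647 (plus strand) for Mmp14.
Tmsb4x: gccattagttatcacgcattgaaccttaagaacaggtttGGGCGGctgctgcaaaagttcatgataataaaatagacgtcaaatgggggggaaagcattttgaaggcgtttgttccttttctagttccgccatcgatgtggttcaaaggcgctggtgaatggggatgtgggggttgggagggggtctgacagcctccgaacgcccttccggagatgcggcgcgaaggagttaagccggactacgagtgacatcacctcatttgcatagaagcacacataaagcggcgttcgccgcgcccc
Rhoc: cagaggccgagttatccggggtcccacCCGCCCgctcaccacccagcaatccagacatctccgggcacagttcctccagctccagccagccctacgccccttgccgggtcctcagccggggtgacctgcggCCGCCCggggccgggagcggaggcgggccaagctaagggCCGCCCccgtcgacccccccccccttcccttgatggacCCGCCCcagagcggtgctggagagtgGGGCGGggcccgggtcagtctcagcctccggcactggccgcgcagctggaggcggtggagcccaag
Timp1: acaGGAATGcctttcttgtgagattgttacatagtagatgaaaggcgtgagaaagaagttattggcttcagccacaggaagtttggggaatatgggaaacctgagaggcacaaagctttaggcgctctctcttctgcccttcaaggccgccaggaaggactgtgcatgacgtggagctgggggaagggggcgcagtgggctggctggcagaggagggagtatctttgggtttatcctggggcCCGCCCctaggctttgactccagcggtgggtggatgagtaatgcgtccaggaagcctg
Mmp14: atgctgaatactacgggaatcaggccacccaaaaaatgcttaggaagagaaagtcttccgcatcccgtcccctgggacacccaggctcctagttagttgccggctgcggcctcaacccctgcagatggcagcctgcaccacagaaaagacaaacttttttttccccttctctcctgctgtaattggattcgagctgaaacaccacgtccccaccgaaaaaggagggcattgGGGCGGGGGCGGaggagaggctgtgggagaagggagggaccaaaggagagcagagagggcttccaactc

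Of the 38 genes, 29 had a promoter in the RefSeq table used here. The GC box letters GGGCGG stood in at least 1 promoter of 26 of these 29, against 38.5% of all 26742 genes with promoters of the same length. GGAATG stood in those of 6 of 29 genes (16.5% of all genes), TATAAA in 5 (15.6%) and the letters TGANTCA, with N any base, in 3 (8.97%). The CArG box, bound by serum response factor, stood in 1, Vcl (1.82%). The motifs were searched on both strands and can overlap. No base composition was matched, and a match of letters is not a binding site.

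The question of the sorted libraries was which motility genes differ between germ cells with and without CD87. Tmsb4x, which encodes thymosin beta 4, a small peptide that binds and stores actin monomers, rose with CD87. The other 37 did not pass the test, which with 2 libraries a group does not show that they did not differ, and more of them lay above than below 0. On log2(TPM + 1), with limma over all 12715 genes that had at least 1 TPM in at least 2 libraries, 1 of 38 members passed an adjusted p of 0.05 as higher (0.0236% of all genes tested did) and 0 passed as lower (0%). All 38 members passed that filter on low values. The 3 genes called over all 12715 were Tmsb4x and the macrophage and leukocyte markers Apoe and Lyz2 (limma adjusted p = 0.00341 and 0.0128). Before adjustment, 4 members had p under 0.05 and were higher (3.37% of all genes), and 0 were lower (1.58%). A log2 difference of at least 1 was reached by 5 members (5.82% of all genes) and one of at most -1 by 0 (7.94%). In 14 members both positive libraries lay above both negative ones, which was so for 20.4% of all genes, and in 2 both lay below, which was so for 14.5%. The members' median log2 difference was 0.23, against 0.015 over all genes tested, and 28 of 38 were above 0 (51% of all genes were). In bulk RNA, a change in how many cells of a type were sorted and a change in RNA per cell cannot be told apart.

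The size of the background shares depends on the scaling and on the filter. When the libraries were rescaled without their highest row, 16.9% of all genes were higher and 18.1% lower in both positive libraries, and with quantile normalization 17.5% and 18.98%. Under the first, 12 members were higher in both and 2 lower, and under the second 12 and 3. The members' median was then 0.12 and 0.095, against -0.082 and -0.0077 over all genes. Of the 38, 25 and 24 were above 0, against 43.7% and 49.3% of all genes. With only genes at a mean of at least 5 TPM, 26 of 34 members were above 0, against 58.1% of all such genes. The median over all such genes was 0.089, and 23.5% were higher and 11.8% lower in both positive libraries. The 4 libraries did not share the extremes evenly: the highest value of a member lay in CD87 positive library 2 for 17 genes and in positive library 1 for 12, and the lowest lay in CD87 negative library 1 for 18. Without positive library 2, the members' median was 0.18 against 0.098 over all genes, and 29 of 38 were above 0 (60.3% of all genes were). Without it the sign of 7 members changed: Fn1 went to 0.032, Mmp2 to -0.18, Iqgap1 to 0.50, Actn1 to 0.093, Flna to 0.61, Rdx to -0.19 and Myh10 to -0.049. None of these 7 was among the 4 members with p under 0.05.

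**Figure D1:**
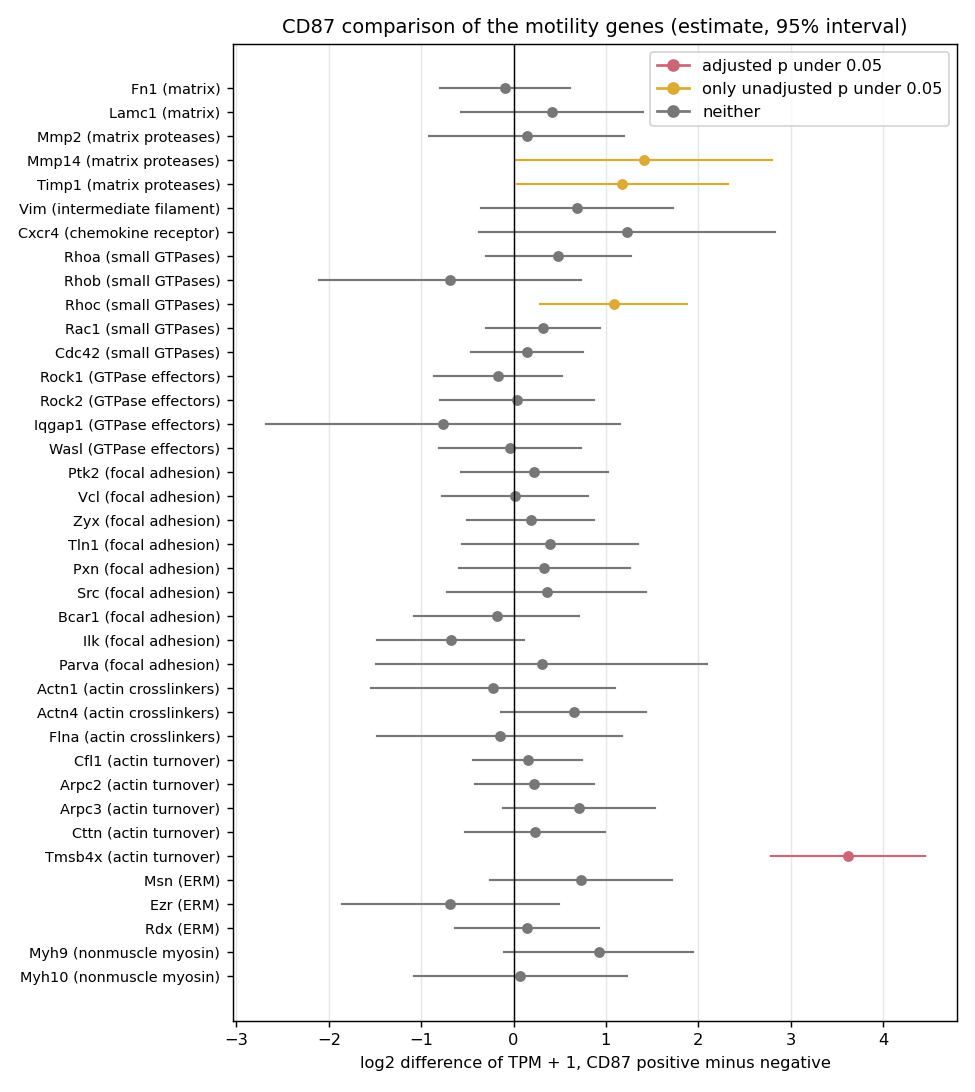
Log2 difference of TPM + 1 (CD87 positive minus CD87 negative) for each of the 38 motility genes, ordered by role. Points are limma estimates and bars are 95% intervals, from 2 libraries per group; the interval of Tmsb4x, from 2.79 to 4.45, is the one whose adjusted p is under 0.05.

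Matrix proteins came first in the order of roles. Fn1, fibronectin, a matrix glycoprotein that integrins bind, was at 48.3 and 35.7 TPM without CD87 and at 42.5 and 35.6 TPM with it, and the groups overlapped. Lamc1, the gamma 1 chain of the laminins in basement membranes, was at 11.9 and 7.68 against 11.6 and 14.9 TPM. Its groups overlapped as well, and its log2 difference was 0.42 (SE 0.43, limma adjusted p = 0.891).

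The matrix enzymes and their inhibitor held 2 of the 4 members with a small unadjusted p. Mmp14, a membrane-bound metalloprotease that cleaves matrix and activates the zymogen of Mmp2, was at 4.32 and 1.25 TPM without CD87 and at 8.12 and 8.28 TPM with it. Both positive libraries lay above both negative ones, and the negative pair was the more spread. The log2 difference was 1.41 (SE 0.61, 95% interval 0.027 to 2.80), with a limma p of 0.0466 and an adjusted p of 0.863, so it did not pass. Without CD87 negative library 2 the estimate was 0.79. Timp1, a secreted inhibitor of metalloproteases, was at 6.20 and 4.86 against 19.6 and 9.48 TPM. Here the positive pair was the more spread and the groups did not overlap, with a log2 difference of 1.18 (SE 0.50, limma p = 0.0442, adjusted p = 0.863). Without CD87 positive library 1 the estimate was 0.69. Mmp2, the secreted gelatinase that Mmp14 activates, was at 8.07 and 8.42 against 7.16 and 11.7 TPM, with overlapping groups.

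Vim, vimentin, the intermediate filament protein typical of mesenchymal cells, was at 8.91 and 10.2 against 11.2 and 22.6 TPM. Both positive libraries were above both negative ones by this measure, by a narrow margin for positive library 1, and the log2 difference of 0.69 (SE 0.45, limma adjusted p = 0.863) did not pass. That difference was 0.21 without CD87 positive library 2. Cxcr4, the receptor of the chemokine CXCL12, was at 1.74 and 1.09 against 2.36 and 8.34 TPM, a log2 difference of 1.23 (SE 0.70, limma adjusted p = 0.863). Positive library 2 supplied most of that difference: without it the estimate was 0.49.

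Among the small GTPases, the switches that set actin assembly and contraction, Rhoc had the smallest p. Rhoc was at 25.8 and 18.3 TPM without CD87 and at 38.3 and 58.1 TPM with it. The groups did not overlap, and the log2 difference was 1.08 (SE 0.35, 95% interval 0.29 to 1.88), with a limma p of 0.0136 and an adjusted p of 0.863. Its close relative Rhoa, which drives stress fibres, was the most abundant of the 5 GTPases, at 93.2 and 131 against 113 and 212 TPM, with overlapping groups. The log2 difference of Rhoa was 0.49, and 0.037 without CD87 positive library 2. Rhob, a family member found on endosomes, was at 4.20 and 9.64 against 5.44 and 2.33 TPM, with a log2 difference of -0.68 that did not pass (SE 0.62) and was -0.21 when CD87 positive library 2 was left out and -0.17 when CD87 negative library 2 was. Rac1, which drives lamellipodia, was at 54.9 and 55.3 against 75.9 and 62.5 TPM and did not overlap between groups, with a log2 difference of 0.32 (SE 0.27, limma adjusted p = 0.871). Cdc42, which drives filopodia and polarity, was at 70.0 and 86.3 against 81.2 and 91.3 TPM.

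Of the GTPase effectors, none had groups apart. Rock1 and Rock2, kinases that activate myosin II downstream of RhoA, ranged from 28.7 to 37.8 TPM and from 14.5 to 16.95 TPM over the 4 libraries. Wasl, N-WASP, which switches on the Arp2/3 complex, ranged from 22.3 to 31.2 TPM. Iqgap1, a scaffold that binds Rac1 and Cdc42, was at 4.51 and 4.50 without CD87 and at 6.79 and 0.35 TPM with it. Its positive libraries lay on either side of the negative ones, so the log2 difference of -0.76 (SE 0.84, limma adjusted p = 0.894) turned to 0.50 without CD87 positive library 2.

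Of the 9 focal adhesion genes, 7 had a log2 difference above 0 (51% of all genes tested did). In both positive libraries 3 were higher (20.4% of all genes tested) and 1 was lower (14.5%). The 3 were Ptk2 (focal adhesion kinase), Tln1 (talin, which ties integrins to actin) and Pxn (paxillin, an adaptor), with log2 differences of 0.23, 0.39 and 0.33 and limma adjusted p from 0.894 to 0.923. Tln1 was at 8.28 and 8.85 against 11.3 and 11.8 TPM, with little spread in either group. Ilk, integrin-linked kinase, the scaffold that joins integrin tails to parvin, was the lower one, at 32.4 and 39.96 against 27.7 and 17.6 TPM. Its log2 difference of -0.68 (SE 0.35, limma p = 0.0858, adjusted p = 0.863) did not pass. Parva, alpha-parvin, the partner of Ilk in that complex, was the lowest member of all at a mean of 1.14 TPM, with 1.50 and 0.28 against 2.30 and 0.48 TPM. Vcl (vinculin), Zyx (zyxin), Src (the kinase) and Bcar1 (p130Cas, an adaptor and Src substrate) had overlapping groups and log2 differences of 0.016, 0.19, 0.36 and -0.18.

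Among the actin crosslinkers, Actn4, an alpha-actinin, was at 18.8 and 23.6 against 27.8 and 40.8 TPM. Its groups did not overlap, and the log2 difference was 0.65 (SE 0.35, limma p = 0.0944, adjusted p = 0.863). The related Actn1 ranged from 2.55 to 4.49 TPM and had a log2 difference of -0.22, which was 0.093 without CD87 positive library 2. Flna, filamin A, was at 8.73 and 8.27 against 13.5 and 4.05 TPM, again with the positive libraries on either side of the negative ones.

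The actin turnover genes held the single call. Tmsb4x was at 4.34 and 3.42 TPM without CD87 and at 57.9 and 59.5 TPM with it. The libraries of each group lay close together and the groups were far apart. The log2 difference was 3.62 (SE 0.36, 95% interval 2.79 to 4.45, 2 of 2 positive libraries above both negative ones; limma adjusted p = 0.0237), a 12.3-fold difference on TPM + 1. That call depended on the setting: the adjusted p was 0.128 with a pseudocount of 0.1, 0.0611 without the filter, 0.247 without the variance trend, 0.0543 after rescaling without the highest row, and between 0.0633 and 1.00 when any one library was left out, while the estimate stayed between 3.48 and 3.75 over the latter. The macrophage and leukocyte sums moved with it in the same libraries, between 12.98 and 16.9 TPM without CD87 and between 295 and 383 TPM with it, and their part in the difference was not tested.

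Arpc3, a subunit of the Arp2/3 complex that starts branched actin, was the most abundant member at a mean of 226 TPM over the 4 libraries. It was at 149 and 180 against 182 and 394 TPM, with positive library 1 barely above negative library 2, and a log2 difference of 0.71 (SE 0.36, limma p = 0.0835, adjusted p = 0.863). The estimate for Arpc3 was 0.15 without CD87 positive library 2. Arpc2, another subunit of the same complex, was at 73.6 and 88.2 against 111 and 80.2 TPM, with overlapping groups. Cfl1, cofilin 1, which severs and strips actin filaments, was at 141 and 185 against 167 and 194 TPM. Cttn, cortactin, which steadies branched actin, ranged from 23.9 to 35.97 TPM.

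The 3 ERM proteins tie actin to the plasma membrane, and their values went in different directions. Msn, moesin, was at 6.81 and 9.58 against 16.3 and 12.2 TPM, above in both positive libraries (log2 difference 0.73, SE 0.43, limma adjusted p = 0.863). Ezr, ezrin, was at 11.6 and 9.59 against 9.29 and 4.03 TPM, below in both (log2 difference -0.68, SE 0.51, limma adjusted p = 0.863), and its estimate was -0.17 without CD87 positive library 2. Rdx, radixin, was the most abundant of the 3, at 35.9 and 29.5 against 28.4 and 46.1 TPM, and overlapped. Neither Msn nor Ezr passed, so no difference between ERM proteins was shown.

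Of the nonmuscle myosin II heavy chains, the motors of contraction, Myh9 was at 5.44 and 5.50 TPM without CD87 and at 11.04 and 11.5 TPM with it. The 2 libraries of each group were nearly equal, and the log2 difference was 0.92 (SE 0.45, limma p = 0.0724, adjusted p = 0.863). Without any one library it stayed between 0.90 and 0.95. Myh10 was at 4.92 and 6.08 against 5.26 and 6.43 TPM, with a log2 difference of 0.075, which was -0.049 when CD87 positive library 2 was left out and -0.054 when CD87 negative library 1 was.

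**Figure D2:**
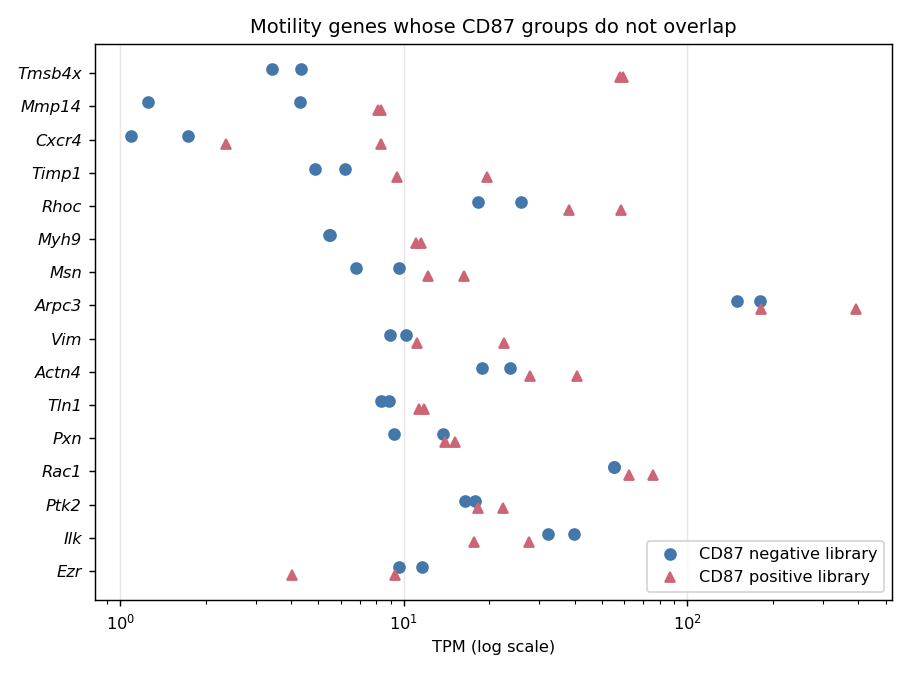
TPM (log axis) of the 16 motility genes whose CD87 groups did not overlap, ordered by their log2 difference. Each point is a library (2 CD87 negative circles, 2 CD87 positive triangles per gene); Tmsb4x, at 3.42 and 4.34 against 57.9 and 59.5 TPM, is the widest apart, and Ilk and Ezr are the pair that is lower.

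A wider list of 178 other actin, adhesion, GTPase and matrix genes was read in the same fit, of which 177 were found and 131 passed the filter. Of the 131, 0 passed the adjusted p of 0.05 in limma. At an unadjusted p under 0.05, 7 were higher and 0 lower (3.37% and 1.58% of all genes tested). In 41 both positive libraries were above both negative ones and in 13 below (20.4% and 14.5% of all genes tested). The median log2 difference of the 131 was 0.17, against 0.015 over all genes tested. The smallest p belonged to Tagln2, a transgelin that binds actin, at 41.3 and 54.9 against 87.6 and 151 TPM (log2 difference 1.25, SE 0.33, limma p = 0.00472, adjusted p = 0.824). Arpc4, a further subunit of the Arp2/3 complex, was at 34.1 and 37.5 against 63.9 and 73.0 TPM (limma p = 0.00989, adjusted p = 0.863). Itgb5, an integrin beta chain of vitronectin receptors, was at 15.3 and 12.96 against 32.2 and 28.02 TPM (limma p = 0.0145, adjusted p = 0.863). Plaur itself, the gene of the sorted protein, was at 0.46 and 0.97 against 3.53 and 8.92 TPM (limma p = 0.0180, adjusted p = 0.863), the direction the sort implies.

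The single cells served the question of whether individual germ cells contain RNA of these genes. Their values are expected counts of reads, which a cell's total turned into CPM, the count scaled to a common library total. CPM is not scaled for gene length, so it was compared within a gene. The 71 cells held between 182584 and 6820422 counts, with a median of 1591516. A gene was taken as detected at an expected count of at least 1, and shares of cells carry exact Clopper-Pearson 95% intervals for counting error. The cells are 1 sample, since no animal is named, and no test was made between them. They were sorted as KIT negative and not by CD87, so they are not a sample of either sorted group.

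Most motility genes were detected in most cells. Of the 38, 7 were detected in every cell (16.3% of all 14443 genes with a mean of at least 1 CPM were), 19 in at least 90% of cells and 31 in at least 50% (69.7% of those genes were). The members' median share was 87.3%, against 76.1% over those genes. Of the 38, 37 had a mean of at least 1 CPM, all but Tmsb4x. The 7 in every cell were Rhoa, Cdc42, Rock1, Rock2, Cfl1, Arpc2 and Rdx. Among them are GTPases, their kinases and a filament severing factor. Cfl1 had a lowest quartile of 443, a median of 599 and a highest quartile of 784 CPM. For Rock1 these were 229, 343 and 519 CPM, and for Cdc42 171, 287 and 399 CPM.

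By role, the actin crosslinkers (90.1% to 95.8% of cells), the GTPase effectors (80.3% to 100%) and the ERM proteins (76.1% to 100%) had no member under 76.1%. The matrix enzymes and their inhibitor were detected in 15.5% to 52.1% of cells. Focal adhesion genes ran from 23.9%, for Parva, to 97.2%, for Zyx, Ptk2 and Ilk. Fn1 was detected in 70 of 71 cells (98.6%, interval 92.4% to 100%), its median being 207 CPM, and Lamc1 in 49 (69.01%, interval 56.9% to 79.5%), its median being 23.8 CPM. Cxcr4 was detected in 46 cells (64.8%, interval 52.5% to 75.8%), but at a median of 0.98 CPM, and in 18 cells after every cell was thinned to 182571 counts.

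**Figure D3:**
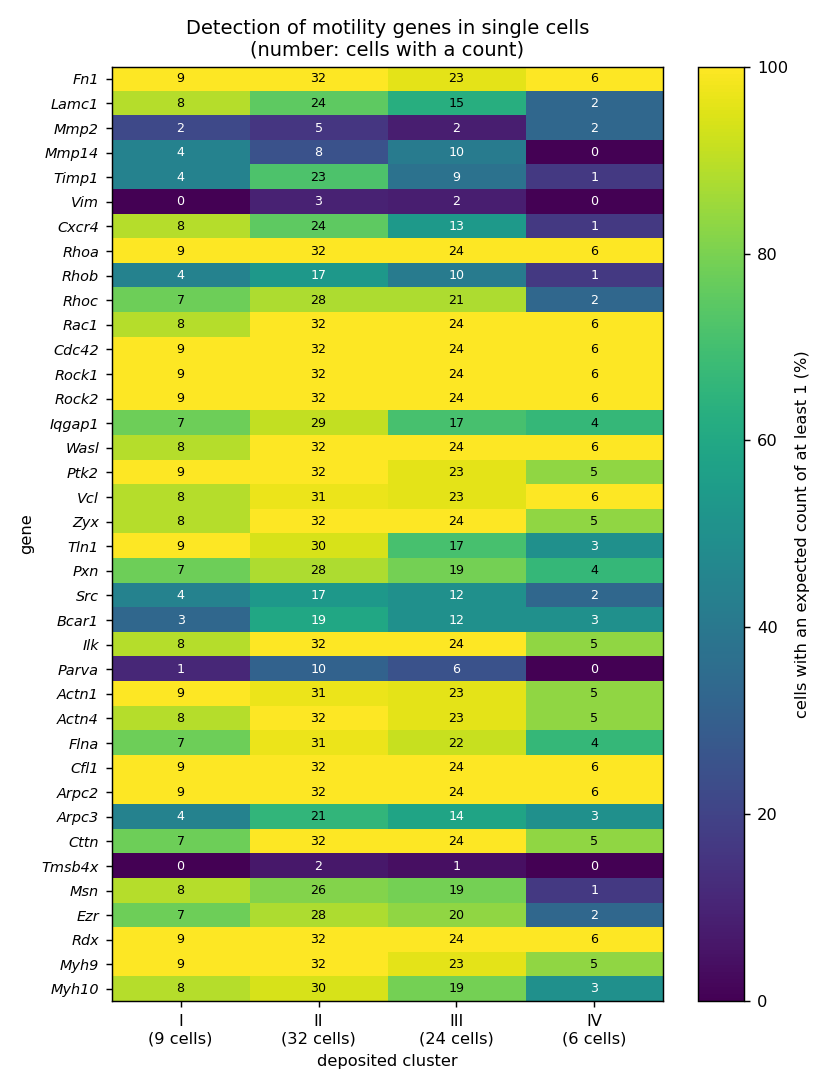
Share of single cells (colour, %) in which a gene reached an expected count of 1, for each motility gene and each deposited cluster, with the number of cells printed in each field. Genes such as Cfl1 and Rdx were detected in all 71 cells, and Tmsb4x, Vim and Mmp2 in 3, 5 and 11 cells.

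Members detected in under 50% of cells were 7, and their CPM was concentrated in a few cells. Vim was detected in 5 of 71 cells (7.04%, interval 2.33% to 15.7%), of which 1 cell held 60.3% of the summed CPM. Mmp2 was detected in 11 cells (15.5%, interval 7.996% to 26.03%) with up to 222 CPM in a cell. Parva was detected in 17 (23.9%, interval 14.6% to 35.5%) with up to 254 CPM. The median over cells of each was 0. Mmp14 was detected in 22 cells (30.99%, interval 20.5% to 43.1%), also at a median of 0 and up to 265 CPM, so few cells held many reads. Rhob was detected in 32 cells and Src in 35.

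The 4 members with a small unadjusted p in the CD87 comparison were spread over the whole range of detection. Rhoc was detected in 58 of 71 cells (81.7%, interval 70.7% to 89.9%) with quartiles of 2.52, 15.9 and 33.9 CPM. Timp1 was detected in 37 (52.1%, interval 39.9% to 64.1%) with quartiles of 0, 0.96 and 15.3 CPM. Mmp14 followed with its 22 cells. Tmsb4x was detected in 3 of 71 cells (4.23%, interval 0.88% to 11.9%), and its highest expected count in any cell was 1.68. After thinning it was detected in 0 cells, which has an exact upper bound of 5.06%. The gene with the widest CD87 difference was thus the least detected member. Its 3 cells lay in clusters II, III and II. Of the 17 macrophage and leukocyte markers, 5 were detected in 0 of 71 cells, among them C1qa, 4 in 1 cell, among them Lyz2 and Tyrobp, and 7 in 6 to 24 cells, among them Apoe in 17. The remaining one, Cx3cr1, was detected in every cell, at a median of 17.9 CPM.

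The sorted libraries and the single cells differed in how they showed 3 members. The sorted groups are taken apart here, since the single cells belong to neither. Tmsb4x averaged 3.88 TPM without CD87, and of the 8850 genes at least as high there 60 (0.678%) were detected in as small a share of cells or a smaller one. With CD87 it averaged 58.65 TPM, and of the 1285 genes at least as high there 3 (0.233%) were. Low detection in the cells thus stood beside both levels. Vim averaged 9.555 and 16.89 TPM, and 20 of 5986 genes (0.334%) and 15 of 4321 genes (0.347%) were as rarely detected. These counts include the gene itself. Arpc3 averaged 226 TPM but was detected in 42 of 71 cells (59.2%, interval 46.8% to 70.7%), its median being 1.12 CPM and its maximum 33.3 CPM. Its group means were 164.555 and 288.08 TPM, and of the 360 and 233 genes at least as high, 4 (1.11%) and 3 (1.29%) had a median under 2 CPM in the cells. CPM is not scaled for length here and Arpc3 is short, so the count of genes is given as a description. Its partner Arpc2, at a mean of 88.3 TPM, was detected in every cell at a median of 112 CPM. Tmsb10, another thymosin of the wider list that was looked up after these values were seen, averaged 931 TPM and was detected in every cell at a median of 19.8 CPM. The sorted libraries and the cells were made and counted by different methods (RSEM against Salmon), and which of these had a part was not tested. The 31-base words of each member were compared with transcripts of other genes (GENCODE M21, longest coding transcript), in the direction of the transcript only. Sharing with the opposite strand was not searched. Tmsb4x, Arpc3, Rhoc and Timp1 share none of their words in that direction. Ilk shares 25.8%, Rhoa 17.03%, Cfl1 16.4%, Cdc42 10.1% and Cttn 9.31%, so the levels of these are less certain.

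**Figure D4:**
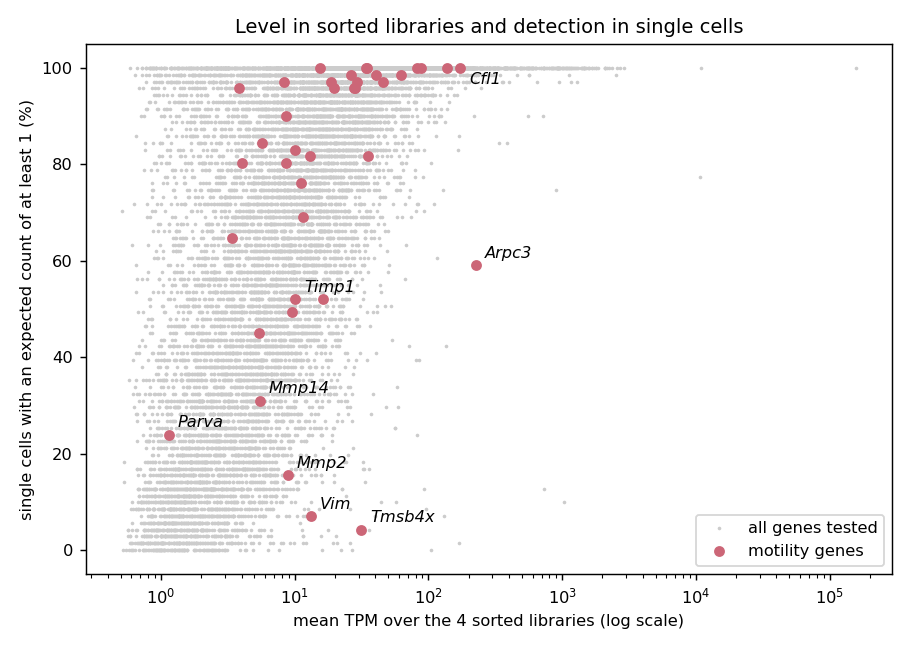
Mean TPM over the 4 sorted libraries (log axis) against the share of the 71 single cells (%) in which a gene reached an expected count of 1, for all genes tested (grey) and the 38 motility genes (red). Tmsb4x (31.3 TPM, 4.23% of cells) and Arpc3 (226 TPM, 59.2%) lie to the right of most genes with their share of cells.

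The deposited table assigns each cell to a cluster: 9 to cluster I, 32 to II, 24 to III and 6 to IV. The authors made the clusters from the expression of these cells, so values by cluster are a description. Median totals were 1448517, 1607438, 1686611 and 1125403 counts in I to IV. Of the 37 members with a mean of at least 1 CPM, 1 was at least 2-fold higher in cluster I than in the other cells by mean CPM and 7 were at least 2-fold lower, where 7.89% and 23.6% of all 14443 genes were. In cluster II these were 1 and 2 (7.11% and 6.83% of all genes), in III 2 and 1 (6.41% and 8.96%), and in IV 2 and 10 (10.1% and 30.7%). The members' median log2 difference over clusters I to IV was -0.22, -0.087, 0.11 and -0.33, against -0.21, 0.019, -0.026 and -0.32 over all genes. The shares of members past the fold were thus near or below those of all genes in each cluster. The summed CPM of the 38 genes had medians of 4598, 4469, 4830 and 4571 CPM in I to IV and a range over all cells from 2621 to 7040 CPM.

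Timp1 was the 1 member past 2-fold in all 4 clusters, higher in II and lower in the others. It was detected in 4 of 9 cells of I, 23 of 32 of II (71.9%, interval 53.3% to 86.3%), 9 of 24 of III (37.5%, interval 18.8% to 59.4%) and 1 of 6 of IV. Its mean was 18.1 CPM in II against 5.22 CPM in the other cells, a log2 difference of 1.62, and 1 cell held 19.3% of the summed CPM of II. Thinned to 1 depth the log2 difference was 1.84. Zyx, a focal adhesion protein that also reaches the nucleus, was detected in nearly every cell, with means of 571 CPM in II and 161 CPM in IV. Against the other cells it differed by 0.87 in II and by -1.49 in IV.

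The 10 lower genes of cluster IV included 2 of the 3 ERM genes. Msn was detected in 1 of its 6 cells (16.7%, interval 0.42% to 64.1%) against 53 of the 65 other cells (81.5%, interval 70.0% to 90.1%). Ezr was detected in 2 of 6 cells against 55 of 65 (84.6%, interval 73.5% to 92.4%), and Rhoc in 2 of 6 against 56 of 65. Mean levels in IV and in the other cells were 9.64 and 82.1 CPM for Msn, 12.4 and 60.7 CPM for Ezr, and 10.7 and 23.8 CPM for Rhoc. Thinned to 1 depth, their log2 differences were -2.88, -2.20 and -1.15. Lamc1, Mmp14, Vim, Timp1, Src, Parva and Zyx were the other 7 lower genes, of which Mmp14, Vim and Parva were detected in 0 of 6 cells. With 6 cells, 0 detected still has an exact upper bound of 45.9%, which takes in the shares of all 3 in the other cells (33.8%, 7.69% and 26.2%). Rdx, by contrast, was detected in all 6.

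Several other folds rested on 1 cell. In cluster IV, Mmp2 was higher by 2.55, and 1 cell held 95.9% of the summed CPM there. Tln1 was higher there by 1.13, where 3 of 6 cells held 153, 828 and 509 CPM and the others 0.85 CPM or less. The cell at 828 CPM thus held more than the other cells of the cluster together, and the difference without it was not computed. In cluster I, Rhob was higher by 1.04, with 61.9% of the CPM in 1 of 9 cells. In III, Mmp14 was higher by 1.35 and Vim by 1.32, with 52.8% and 84.4% of the CPM in 1 of 24 cells, and Vim was detected in 2 cells of the cluster. The 7 lower genes of cluster I were Timp1, Vim, Rac1, Src, Bcar1, Parva and Arpc3, with log2 differences from -1.01 for Rac1 to -3.89 for Parva. Rac1 was detected in 8 of 9 cells of I at a median of 21.2 CPM, against 62 of 62 other cells at 60.7 CPM, but thinned to 1 depth its log2 difference was -0.74 and that of Vim -0.59, under the 2-fold mark. The order of Src turned on medians (0.18). Mmp2 and Mmp14 were the lower ones in II, by -2.58 and -1.41, and Timp1 in III, by -1.11.

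**Figure D5:**
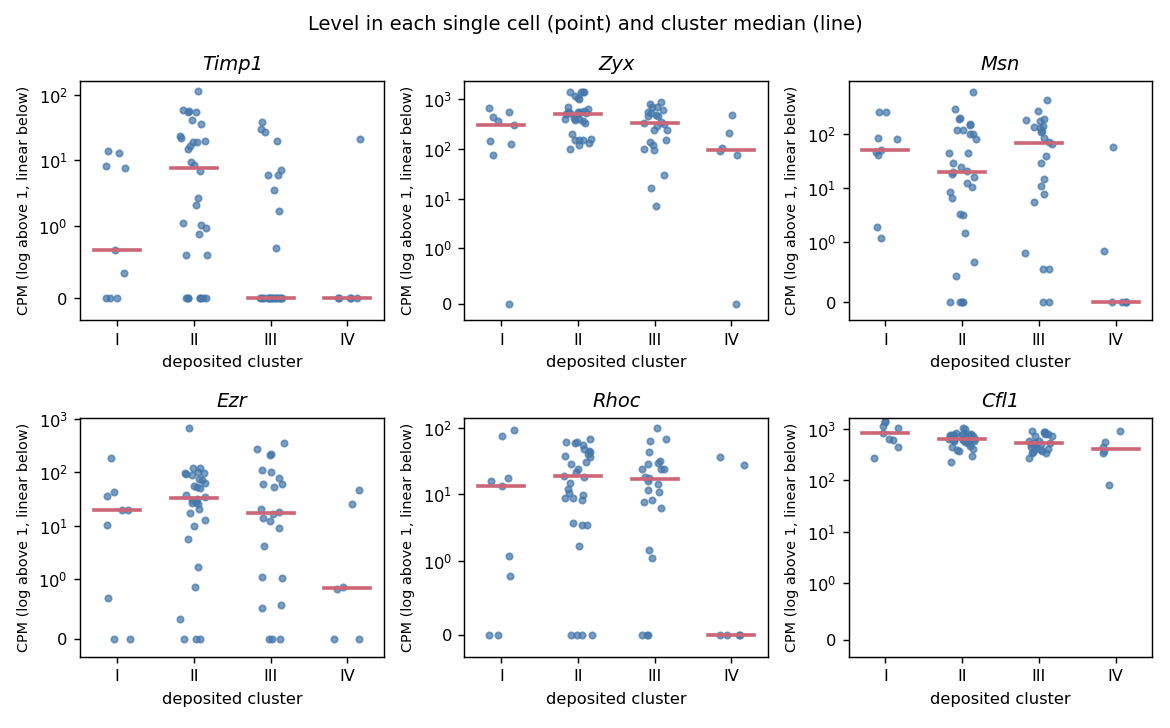
CPM in each single cell (points; axis linear up to 1 and logarithmic above) for 6 motility genes by deposited cluster, with red lines at cluster medians. Timp1 was detected in 23 of 32 cells of II and 9 of 24 of III, Msn and Ezr in 1 and 2 of the 6 cells of IV, and Cfl1 in every cell.

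Members detected in at least 90% of cells showed weak pairwise correlations from cell to cell. Among the 19 members detected in at least 90% of cells, the 171 pairwise Spearman correlations of CPM over the 71 cells ran from -0.25 to 0.37 with a median of 0.026, and 1 pair, Rock1 with Actn4, was above 0.3. These cells share their library method and differ in depth, so the correlations are descriptions. Pairs of other genes were not computed for comparison.

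In the wider list, 23 of 177 genes were detected in every cell, 56 in at least 90%, 88 in at least 50% and 9 in no cell. Tagln2 and Arpc4, with the smallest p in the CD87 comparison of that list, were each detected in 70 of 71 cells, at medians of 101 and 60.2 CPM. Itgb5 was detected in 55 cells (77.5%) at a median of 46.2 CPM, and Plaur in 30 (42.3%, interval 30.6% to 54.6%) at 0.55 CPM.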

How the data were processed

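The 38 genes, the wider gene list and the marker lists were chosen with earlier results of these data known. The sorted libraries are held as TPM, which the authors obtained with Trim Galore and RSEM, and the single cells in expected counts, which the authors obtained with Trim Galore and Salmon. Both rest on mm9, per the submitters' processing notes. No source used here gives tool versions or an annotation. RNA of sorted cells was amplified by Smart-seq2 and single cells were captured on a Fluidigm C1, per the labels' protocols. Sequencing depth of the 4 sorted libraries cannot be read from TPM. Columns summed to 580440 to 635203 TPM, of which LOC672857 took 23.9% to 31.2%.

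CD87 groups were compared with limma 3.58.1 (R 4.3.3) on log2(TPM + 1) with a variance trend, two-sided, with Benjamini-Hochberg adjustment over 12715 genes with at least 1 TPM in at least 2 libraries. Low genes change by more than this scale shows. With 2 libraries a group, the smallest exact permutation p is 0.333. No label names animals for the libraries, so the p-values reflect the spread between libraries, which may be technical.

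Expected counts were scaled to CPM by the full column total. The single cells' rows include 22 gene names that had become dates, and these (at most 0.609% of a cell's counts) were not used as genes. Cluster differences are log2((mean CPM in the cluster + 1)/(mean CPM in the other cells + 1)). Cells were thinned without replacement to 182571 counts. Reads were amplified by PCR and carry no molecular identifiers, so each interval and limit covers counting error alone.

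The rule for named genes took members with a small p and the member with the largest difference in each role group, and, in single cells, members past 2-fold in a cluster, at the extremes of detection or with a small CD87 p. Other members are given with values too, so that all 38 are accounted for. Of the wider list, at most the 4 genes with the smallest p in a direction were named. Alternatives were other pseudocounts, filters, scalings and detection limits, no trend, the replicate block and leaving out each library. The fit was tested on simulated data. Symbols matched directly for 37 of 38 members, 169 of 178 wider-list genes and 85 of 92 markers, and through older symbols for 1, 8 and 5. Of the series, 5 further libraries were not analysed here.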

Additional observations from a re-analysis of the deposited data

How the results depend on the processing

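Over all genes, limma called 3, and 1 with a pseudocount of 0.1, 1 without the filter, 0 without the trend and 0 without any one library (lowest 0, highest 0). Of the 38 members, 1 was called, and 0 with a pseudocount of 0.1, without the filter, without the trend, after rescaling without the highest row and without any one library (lowest 0, highest 0). At an unadjusted p, 428 genes were higher and 201 lower in limma. Same-numbered libraries had deviations from their group means that correlated at 0.068 over 12715 genes. The labels name no pairing, and this correlation cannot settle whether same-numbered libraries belong together. With the replicate block 130 genes were called, and 1 member. Members higher in both positive libraries were 14, and 18 to 23 without any one library, with 23 without CD87 negative library 2 and 22 without CD87 positive library 2. Members lower in both were 2, and 3 to 9 without any one library, with 8 without CD87 negative library 1, 9 without CD87 positive library 1 and 4 without CD87 positive library 2; with 3 libraries fewer conditions must hold, so these counts are larger by construction. The members' median log2 difference of 0.23 was 0.12 after rescaling without the highest row and 0.095 with quantile normalization, both moves being larger than the SD of 0.099 between libraries. The rescaling moved the median of all genes from 0.015 to -0.082, and the cause of the move under quantile normalization was not tested. Leaving out any one library changed the sign of 17 of the 38 members, 7 of them without CD87 positive library 2, and of none of the 4 with p under 0.05. The count of members detected in at least 50% of cells was 27 to 33 under other cuts and thinning. Of 26 cluster differences past 2-fold, 24 kept their direction and size of at least 2-fold when cells were thinned, 25 without the 50 highest genes in the total, 21 with summed counts and 10 when medians replaced means. The median levels of Tmsb4x, Cxcr4 and Arpc3 in the cells lay near 1 CPM or below, where detection can change with depth. How far depth accounts for their shares of cells was not tested.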
